A study of Mus musculus with 6 samples.

Results

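The genes described here build the intercalated disc, the end-to-end contact between cardiomyocytes (CMs), and its gap junctions. The set holds 10 of the 16448 genes in the deposited table and was taken by gene symbol: the connexins *Gja1*, *Gja5* and *Gjc1*, the adherens junction genes *Cdh2* and *Ctnna3*, and the desmosomal genes *Dsp*, *Pkp2*, *Jup*, *Dsg2* and *Dsc2*. All 10 reached 10 normalized counts in 3 or more samples, the filter for genes to be tested.

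RNA-seq was performed on CMs of 3 control mice (CtrlCre, genotype αMHC-Cre pos/+ with Cpt1b +/+) and 3 mutant mice (Cpt1bcKO, αMHC-Cre pos/+ with Cpt1b fl/fl), aged 8 to 12 weeks, with no treatment named in the labels. *Cpt1b* encodes the muscle carnitine palmitoyltransferase that admits long-chain fatty acids to mitochondrial oxidation, and the question was how its loss changes CM gene expression. Both groups were littermates on a C57BL/6 background and both carry the Cre transgene. The αMHC promoter, that of *Myh6*, drives it in CMs before birth, so recombination was not confined to the adult heart. Cells came from digested ventricles, were enriched by low-speed centrifugation and were not sorted. The values are normalized counts: reads counted on a gene, which the authors scaled between samples by a size factor and then rounded.

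Sums of these values lay between 13393411 and 31722217 per sample, and between 3146414 and 3551692 without mitochondrially encoded and rRNA genes. The mitochondrial rRNA gene *mt-Rnr2* took from 61.8% of the sum (Cpt1bcKO sample 1) to 80.8% (Cpt1bcKO sample 3). In the 5 samples where low values were spaced widely enough to show it, a single read was worth between 0.682 and 1.29 normalized counts, so values near 10 rest on about as many reads. *Cpt1b* itself had 1861, 893 and 1443 normalized counts in CtrlCre samples 1 to 3 and 211, 353 and 285 in Cpt1bcKO samples 1 to 3. By *Xist* and the Y-linked *Ddx3y*, sample 1 of each group came from a female and the others from males, so differences within each sex are given below.

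Gap junctions are clusters of channels made of connexins, through which the action potential passes from CM to CM. Adherens junctions hold the cells together through N-cadherin, which is tied to actin by catenins. Desmosomes do the same through desmogleins and desmocollins, which plakoglobin, plakophilin and desmoplakin connect to desmin filaments. In the heart these structures are intermingled at the disc, and inherited defects in desmosomal genes are a known cause of arrhythmogenic cardiomyopathy.

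Of the 10 genes, 9 had a lower estimate in Cpt1bcKO than in CtrlCre CMs, a count that was 5 when samples were scaled to equal levels of 8 CM markers. An estimate below 0 was found for 50.2% of all 11364 genes tested, and for 9.52% of all genes on the scale of the CM markers. *Cdh2*, the gene of N-cadherin, fell to 58.04% of its control level and was the sole member with an adjusted *P* below 0.05 in limma. Across all genes tested, 1.57% reached that threshold, 0.906% with lower and 0.66% with higher values. Sample 1 of each group was female, and with sex as covariate *Gja1*, *Gjc1*, *Ctnna3* and *Dsg2* passed as well, beside 5.05% of all genes. At an unadjusted *P* below 0.05 in limma, the threshold the study used with another test, 5 members were lower (*Gja1*, *Gjc1*, *Cdh2*, *Ctnna3* and *Dsg2*) and none was higher, against 7.22% of all genes lower and 6.66% higher.

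The median log2 fold change of the 10 genes was −0.43, beside −0.0013 for all genes tested. In 7 members every Cpt1bcKO value lay below every CtrlCre value, an arrangement seen in 9.6% of all genes. The reverse, seen in 9.13% of all genes, occurred in none of the 10. The members did not move alike: *Gjc1*, *Dsg2*, *Cdh2*, *Ctnna3* and *Gja1* had estimates among the lowest 8.11% of tested genes, whereas *Pkp2* and *Jup* stood 37.3% and 29.7% of the way up that order. In bulk RNA of a CM preparation, fewer CMs in a sample and less RNA of a gene per CM cannot be told apart.

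**Figure D1:**
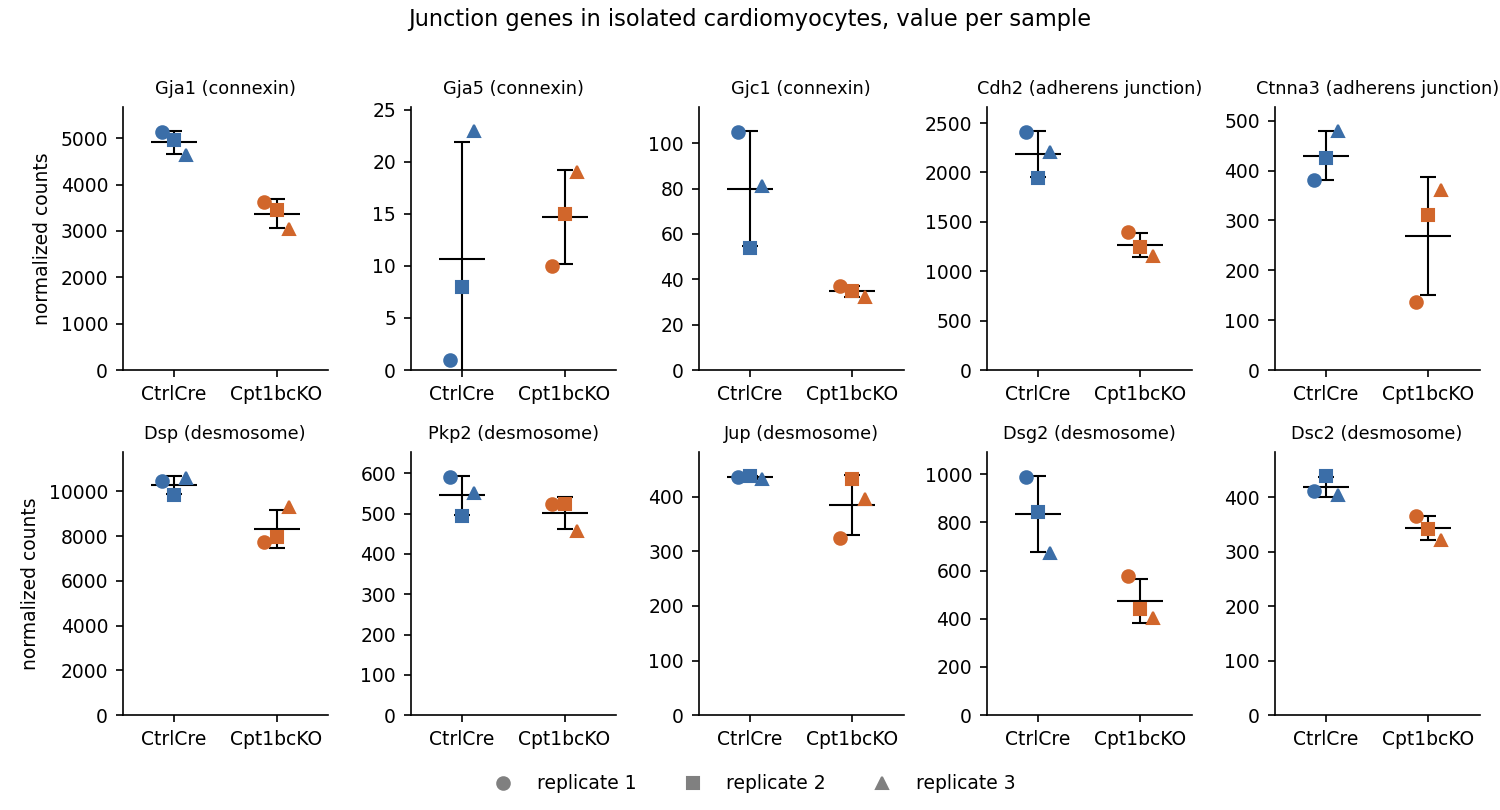
Normalized counts of each of the 10 genes (vertical axis, starting at 0) in the 3 CtrlCre (blue) and 3 Cpt1bcKO (orange) samples, with replicate numbers as symbols, the group mean as a bar and the SD (n = 3) as whiskers. The groups are separate for *Gja1*, *Gjc1*, *Cdh2*, *Ctnna3*, *Dsp*, *Dsg2* and *Dsc2*, and overlap for *Gja5*, *Pkp2* and *Jup*.

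*Gja1* (ENSMUSG00000050953, chr10:56377330-56390415, plus strand, GRCm38) encodes the main gap junction protein of working ventricular myocardium. It had 5129, 4970 and 4644 normalized counts in CtrlCre samples 1 to 3 and 3630, 3458 and 3035 in Cpt1bcKO samples 1 to 3. Every mutant sample lay below the lowest control, and the group means were 4914 ± 247 and 3374 ± 306 (SD, n = 3 each). Its level in Cpt1bcKO was 68.5% of that in CtrlCre on the log2(value + 1) scale, a log2 fold change of −0.55 (SE 0.137, 95% interval −0.85 to −0.24). The unadjusted *P* was 0.00246 and the adjusted *P* 0.0928, so *Gja1* passed the unadjusted threshold but not the adjustment for all genes. With sex as covariate *Gja1* passed the adjustment in limma (adjusted *P* = 0.013), as it did with the replicate number as a block (0.0118). Within the female pair the log2 difference was −0.50, and between the male samples it was −0.57.

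*Gjc1* (ENSMUSG00000034520, chr11:102799579-102819700) encodes a connexin of the conduction system and of the embryonic heart. It was a minor transcript, with 105, 54 and 81 normalized counts in CtrlCre and 37, 35 and 32 in Cpt1bcKO samples. The control values were spread widely, the mutant values hardly at all, and the groups were separate. The log2 fold change was −1.13 (SE 0.272, 95% interval −1.74 to −0.53), the largest decrease among the 10 estimates, with an unadjusted *P* of 0.00179 and an adjusted *P* of 0.0774. The difference was −1.48 in the female pair and −0.96 between the male samples.

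*Gja5* (ENSMUSG00000057123, chr3:96904693-97077416) encodes a connexin of atrial CMs, the ventricular conduction system and arterial endothelium. It was close to the limit of detection, with 1, 8 and 23 normalized counts in CtrlCre and 10, 15 and 19 in Cpt1bcKO samples. The mutant values lay within the wider range of the controls and no difference was detectable with all samples fitted (log2 fold change 1.01, 95% interval −0.74 to 2.76, unadjusted *P* = 0.23). Without CtrlCre sample 3 the estimate was 1.84 (unadjusted *P* = 0.0344, adjusted *P* = 0.392 in limma). Without CtrlCre sample 1 it was 0.05 (unadjusted *P* = 0.929). Its exons share 165 bases with *Gpr89* on the opposite strand, which had 44 to 79 normalized counts, and the use of strand in counting is not given in the sources used here.

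Because gap junction channels are built from these connexins, their make-up was compared per kb of exon within each sample, which does not depend on how samples are scaled. *Gja1* made up 97.28 to 98.45% of the 3 connexins in CtrlCre and 97.98 to 98.41% in Cpt1bcKO samples. The share of *Gjc1* was 2.57%, 1.38% and 2.18% in CtrlCre and 1.29%, 1.28% and 1.33% in Cpt1bcKO samples, so every mutant share lay below every control share. With 3 samples against 3, an exact permutation test of such a value cannot go below *P* = 0.1. *Gja5* held at most 0.687% in any sample.

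The start sites of *Gja1* and *Dsp*, the members with the highest levels per kb, are shown because both genes had lower values in every mutant sample on the deposited scale while their upstream sequences are unlike. Promoters are from RefSeq (GRCm38.p6). Entries of 5 of the 10 genes were used, and *Gjc1*, *Cdh2*, *Pkp2*, *Dsg2* and *Dsc2* were not among them. The 250 bases before the start are printed 5′ to 3′ on the plus strand, at chr10:56377050-56377299 for *Gja1* and chr13:38151044-38151293 for *Dsp*. Capitals mark matches, on either strand, to any of 6 short motifs whose letters follow the sequences.
Gja1: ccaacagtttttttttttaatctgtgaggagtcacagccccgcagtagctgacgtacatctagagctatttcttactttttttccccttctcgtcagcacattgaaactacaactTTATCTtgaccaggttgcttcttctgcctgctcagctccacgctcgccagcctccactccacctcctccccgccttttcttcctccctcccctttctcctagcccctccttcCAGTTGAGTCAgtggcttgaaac
Dsp: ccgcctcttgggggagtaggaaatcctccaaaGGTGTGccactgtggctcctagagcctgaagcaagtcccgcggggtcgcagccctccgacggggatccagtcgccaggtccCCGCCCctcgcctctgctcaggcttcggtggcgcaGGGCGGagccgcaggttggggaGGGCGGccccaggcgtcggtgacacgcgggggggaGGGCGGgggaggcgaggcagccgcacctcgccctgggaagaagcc
The *Gja1* stretch has a GC content of 50% and no GC box (GGGCGG). It holds 1 match to the AP-1 letters TGANTCA close to the start, found in 6.85% of 26734 promoter windows of this length. That match overlaps 1 match to the E-box letters CANNTG, which occur in 66.0% of windows and are the commonest of those searched. Further upstream it has 1 match to AGATAA, the GATA factor letters, which are present in 10.2% of windows. The *Dsp* stretch is 72.4% GC and holds 4 GC boxes, a motif found at least once in 33.2% of windows. It also has 1 match to GGTGTG, the core of the T-box factor site, a string that 16.2% of windows hold. Neither stretch has TATAAA, the TATA box, as 12.9% of windows do. These matches describe the letters alone.

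*Cdh2* (ENSMUSG00000024304, chr18:16588877-16809246) encodes N-cadherin, the classical cadherin of CMs. It had 2413, 1940 and 2207 normalized counts in CtrlCre and 1401, 1243 and 1159 in Cpt1bcKO samples. The lowest control was well above the highest mutant sample, with means of 2187 ± 237 and 1268 ± 123 (SD, n = 3 each). Its log2 difference was −0.78 (SE 0.144, 95% interval −1.10 to −0.47, unadjusted *P* = 0.000244, adjusted *P* = 0.0238 in limma). Within sexes it was −0.78 in the female pair and −0.79 between the male samples.

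The direction of *Cdh2* did not depend on any single sample, whereas its adjusted call did. The log2 fold change stayed between −0.87 and −0.71 when each sample was left out in turn, with an unadjusted *P* below 0.05 each time. The call held without Cpt1bcKO sample 1 (adjusted *P* = 0.0139). It was lost without CtrlCre sample 1 (adjusted *P* = 0.0812), 2 (0.061) or 3 (0.11) and without Cpt1bcKO sample 2 (0.147) or 3 (0.0769), with 5 samples in each fit. Relative to 8 CM markers the estimate was −0.28 (adjusted *P* = 0.239), and over all alternatives the adjusted *P* ranged from 0.00191 to that value.

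*Ctnna3* (ENSMUSG00000060843, chr10:63430098-65003667) encodes αT-catenin, an α-catenin largely restricted to heart and testis that links cadherin complexes to actin. It had 382, 426 and 480 normalized counts in CtrlCre and 136, 310 and 361 in Cpt1bcKO samples. All mutant values were below the controls, but Cpt1bcKO sample 1, the female, was far below the other mutant samples. The log2 fold change was −0.78 (SE 0.309, 95% interval −1.47 to −0.10, unadjusted *P* = 0.0289, adjusted *P* = 0.286). Without Cpt1bcKO sample 1 it was −0.35 (unadjusted *P* = 0.0624), and the unadjusted *P* was also above 0.05 without CtrlCre sample 2 (0.0642) or 3 (0.0872). The difference was −1.48 in the female pair and −0.43 between the male samples.

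Among the 5 desmosomal genes, the transmembrane cadherin *Dsg2* was lower at the unadjusted threshold and the other 4 did not pass it. With the replicate block or sex as covariate, *Dsp* (unadjusted *P* = 0.0166 and 0.0191) and *Dsc2* (0.0369 and 0.0352) passed that threshold too. In those fits 1289 and 1280 of all 11364 genes were lower at it. The adjusted *P* in limma was 0.134 and 0.146 for *Dsp* and 0.204 and 0.199 for *Dsc2*. *Dsg2* (ENSMUSG00000044393, chr18:20558074-20604521), the gene of desmoglein, had 990, 841 and 674 normalized counts in CtrlCre and 576, 440 and 404 in Cpt1bcKO samples. Controls varied but remained above all mutant samples. Its log2 fold change was −0.82 (SE 0.188, 95% interval −1.23 to −0.40, unadjusted *P* = 0.00134, adjusted *P* = 0.0664), a level of 56.8% of control. It was −0.78 in the female pair and −0.84 between the male samples, and the adjusted *P* ranged from 0.00281 to 0.287 over all alternatives, the highest without Cpt1bcKO sample 2.

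*Dsc2* (ENSMUSG00000024331, chr18:20030633-20059554), the desmocollin that pairs with *Dsg2* in the same junctions, had 411, 439 and 404 normalized counts in CtrlCre and 366, 341 and 322 in Cpt1bcKO samples. The groups did not overlap, yet the difference was small, with a log2 fold change of −0.29 (SE 0.14, 95% interval −0.60 to 0.02, unadjusted *P* = 0.0676), which turned to 0.22 relative to CM markers. *Dsp* (ENSMUSG00000054889, chr13:38151294-38198577) encodes desmoplakin, the plaque protein that holds desmin filaments. It was the member with the highest values, 10449, 9852 and 10602 in CtrlCre and 7732, 7957 and 9299 in Cpt1bcKO samples. The mutant samples were all below the controls, with Cpt1bcKO sample 3 close to them. The log2 fold change was −0.31 (SE 0.147, 95% interval −0.64 to 0.01, unadjusted *P* = 0.0591) and 0.19 relative to CM markers.

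*Pkp2* and *Jup* encode plakophilin and plakoglobin, armadillo proteins of the desmosomal plaque, and plakoglobin also sits in adherens junctions. *Pkp2* (ENSMUSG00000041957, chr16:16213318-16272712) had 591, 495 and 551 normalized counts in CtrlCre and 525, 524 and 456 in Cpt1bcKO samples. *Jup* (ENSMUSG00000001552, chr11:100370619-100397749) had 435, 438 and 432 in CtrlCre and 325, 432 and 396 in Cpt1bcKO samples. Both pairs of groups overlapped or touched: 2 of the mutant *Pkp2* values lay among the controls, and a mutant *Jup* value equalled the lowest control. The log2 fold change was −0.12 for *Pkp2* (95% interval −0.44 to 0.20, unadjusted *P* = 0.421) and −0.19 for *Jup* (95% interval −0.53 to 0.15, unadjusted *P* = 0.245), turning to 0.38 and 0.32 relative to CM markers. With 1 sample left out, *Pkp2* ranged from −0.19 (without CtrlCre sample 2) to −0.05 (without Cpt1bcKO sample 3), and *Jup* was −0.07 without Cpt1bcKO sample 1. These intervals leave room for decreases as large as those of *Dsp* and *Dsc2*.

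**Figure D2:**
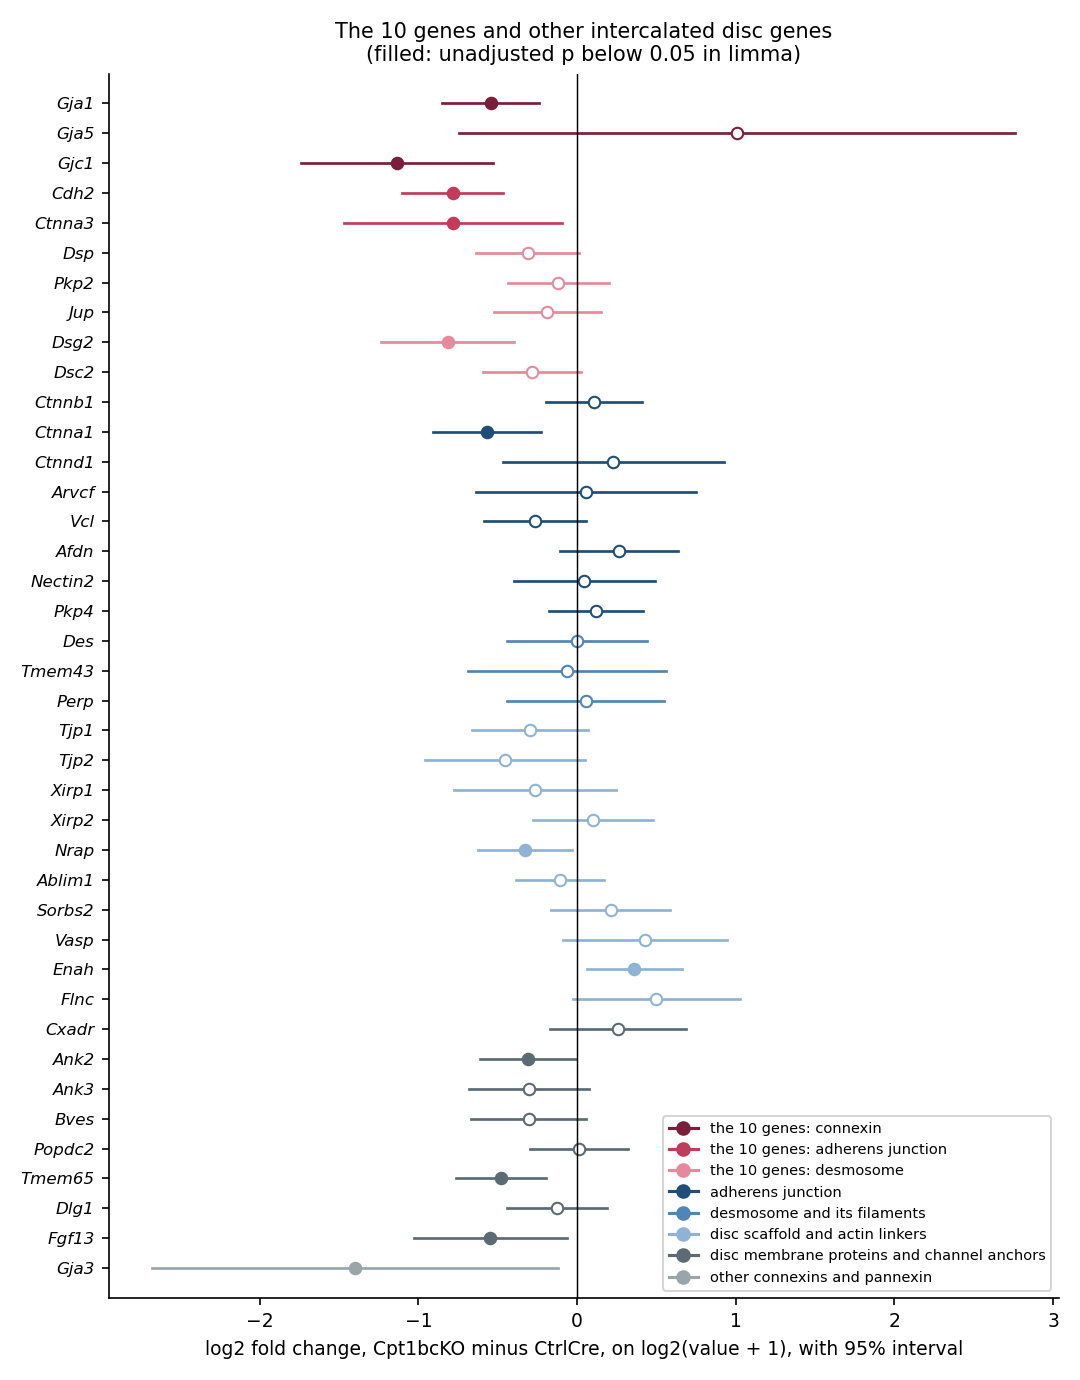
Log2 fold change (Cpt1bcKO minus CtrlCre, on log2(value + 1), horizontal axis) with its 95% interval for the 10 genes (reds) and 30 of the 31 other tested genes of the disc (blues and greys), from limma with 3 samples per group. Filled points have an unadjusted *P* below 0.05: 5 of the 10 genes, all lower, with *Gjc1* the lowest of them at −1.13, and 7 of the 30 others, 6 of them lower. Relative to 8 CM markers, *Dsp*, *Pkp2*, *Jup* and *Dsc2* move above 0.

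Levels between genes were compared per kb of exon. In CtrlCre CMs *Dsp* stood first at 1066 ± 41.0 normalized counts per kb, followed by *Gja1* at 763 ± 38.4 and *Cdh2* at 271 ± 29.4 (SD, n = 3). These 3 genes lay above 95.7% or more of all tested genes, and their order held without overlap in both groups. *Pkp2* (102 ± 8.997), *Dsg2* (101 ± 19.1) and *Jup* (97.0 ± 0.669) could not be separated in CtrlCre, since the sample values of each neighbouring pair overlapped. *Dsc2* (79.2 ± 3.51), *Ctnna3* (59.4 ± 6.79), *Gjc1* (16.0 ± 5.10) and *Gja5* (1.86 ± 1.96) followed, each neighbouring pair without overlap.

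The order was the same in Cpt1bcKO CMs but for *Dsg2*, which moved from the fifth to the seventh place. It had 57.2 ± 10.97 normalized counts per kb there, below *Jup* (85.7 ± 12.1) and *Dsc2* (65.0 ± 4.18). Its sample values overlapped those of *Dsc2* and of *Ctnna3*, and those of *Pkp2* and *Jup* overlapped, so that only part of this order exceeds the spread between samples. Exon lengths are from GENCODE vM21, which has the deposited start and end for 8 of the 10 genes but not for *Gja1* and *Jup*.

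**Figure D3:**
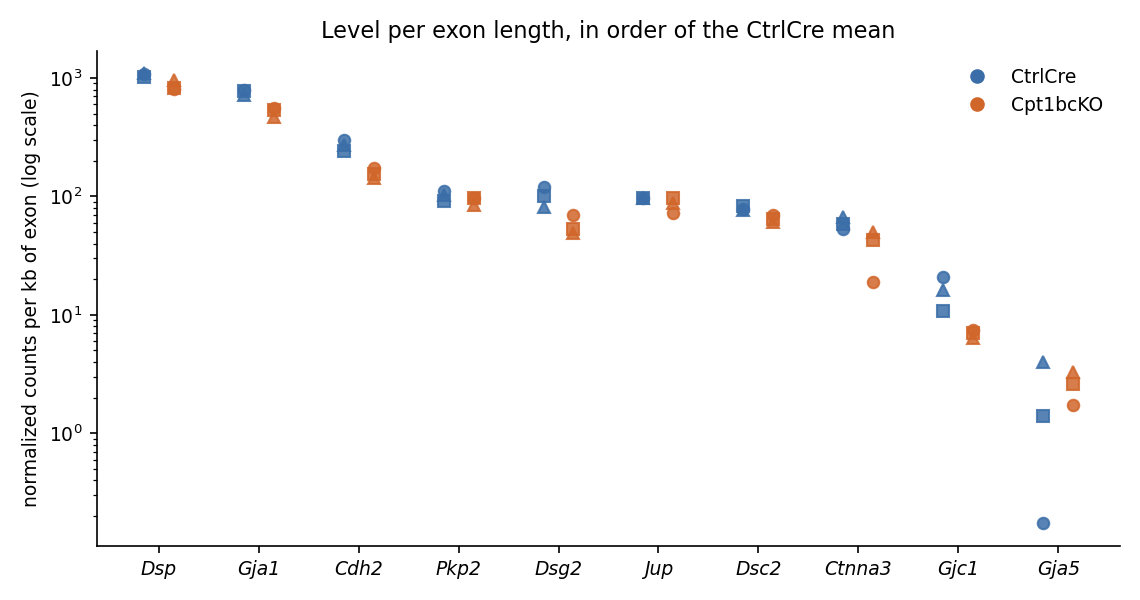
Normalized counts per kb of exon (vertical log axis) for the 10 genes in order of their CtrlCre mean, with the 3 CtrlCre samples in blue and the 3 Cpt1bcKO samples in orange (symbols as replicate numbers). Levels span from 1066 for *Dsp* to 1.86 for *Gja5* in the CtrlCre means, and *Dsg2* sinks from beside *Pkp2* and *Jup* to the level of *Dsc2*.

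Partner genes were then compared as ratios within a sample, which no scaling of samples can change. Of 7 ratios, 4 were without overlap between the groups, and 3 of the 7 (*Gja1* to *Dsp*, *Cdh2* to *Dsp* and *Cdh2* to *Ctnnb1*) were chosen after the values had been seen. All separated ratios except *Dsg2* to *Dsc2* contain *Cdh2*, so they are not independent of its lower values. The share of other gene pairs without overlap was not computed. The ratio of the desmosomal cadherins *Dsg2* to *Dsc2* was 2.41, 1.92 and 1.67 in CtrlCre and 1.57, 1.29 and 1.25 in Cpt1bcKO samples, a shift against *Dsg2*. *Cdh2* relative to *Ctnnb1*, the gene of its cytoplasmic partner β-catenin, was 2.75, 2.26 and 2.70 in CtrlCre and 1.37, 1.38 and 1.39 in Cpt1bcKO samples. The mutant ratios were nearly identical and far below the controls, with means of 1.38 ± 0.00657 and 2.57 ± 0.271 (SD, n = 3 each). *Ctnnb1* itself had 817 to 879 normalized counts in CtrlCre and 837 to 1021 in Cpt1bcKO samples.

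*Cdh2* was also lower relative to *Dsp*, at 0.231, 0.197 and 0.208 in CtrlCre and 0.181, 0.156 and 0.125 in Cpt1bcKO samples. The ratio of *Gja1* to *Cdh2* was 2.13, 2.56 and 2.10 in CtrlCre and 2.59, 2.78 and 2.62 in Cpt1bcKO samples, higher in the mutant by a narrow margin. In contrast, the ratios of *Gja1* to *Dsp*, *Pkp2* to *Jup*, and *Ctnna3* to its broadly expressed relative *Ctnna1* overlapped between the groups. No test was made on these ratios.

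**Figure D4:**
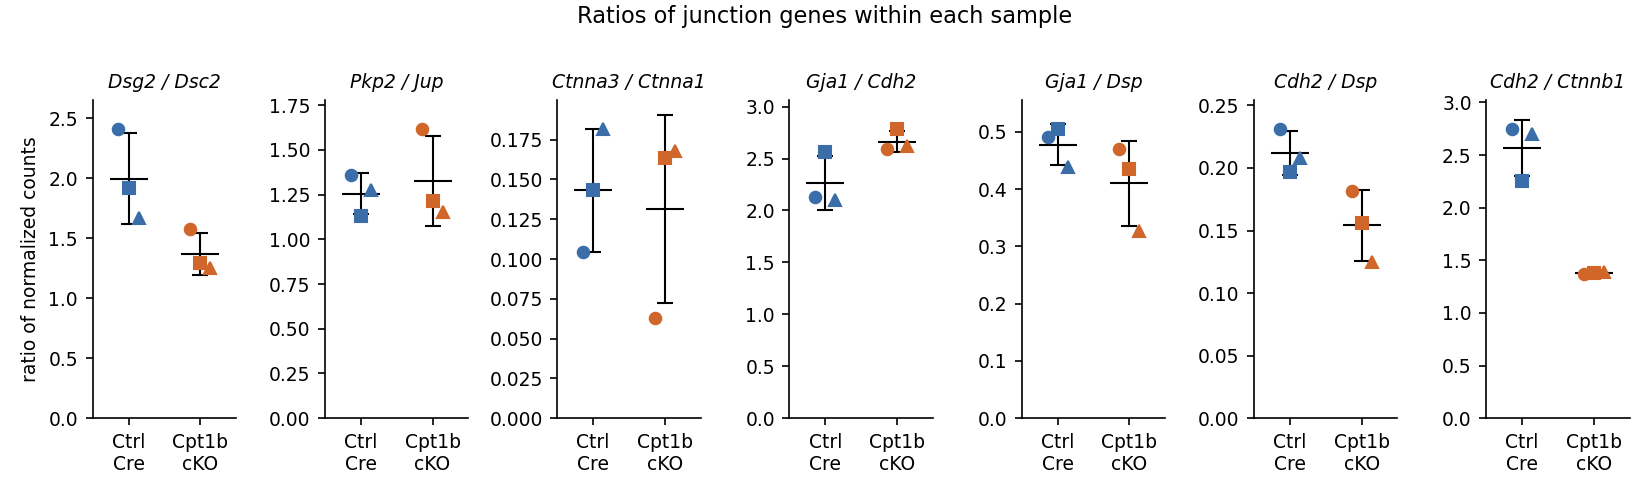
Ratio of normalized counts of 2 genes within each sample (vertical axes, starting at 0) in CtrlCre (blue) and Cpt1bcKO (orange), with the mean and SD (n = 3). *Dsg2* / *Dsc2*, *Cdh2* / *Dsp* and *Cdh2* / *Ctnnb1* are lower and *Gja1* / *Cdh2* higher in every Cpt1bcKO sample than in any CtrlCre sample, and the other 3 ratios overlap.

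Other genes of the intercalated disc were taken from a list of 51, of which 36 were analysed here and 31 tested. They did not share a direction: 16 estimates were above 0 and 15 below, and their median was 1e-04 on the log2 scale. In limma none passed the adjusted threshold (1.57% of all genes did) and 7 had an unadjusted *P* below 0.05 (13.9% of all genes), of which 6 were lower and 1 higher. With the replicate number as a block, 2 of them passed the adjusted threshold, beside 5.31% of all genes in that fit. Relative to 8 CM markers 3 did, beside 8.1% of all genes. Of the 31, 10 were without overlap below the controls (9.6% of all genes) and 1 above (9.13%).

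Among 8 further adherens junction genes, *Ctnna1*, the gene of αE-catenin, was lower, with 3651, 2973 and 2645 normalized counts in CtrlCre and 2155, 1894 and 2153 in Cpt1bcKO samples (log2 fold change −0.57, unadjusted *P* = 0.00392, adjusted *P* = 0.119). Both α-catenin genes, *Ctnna1* and *Ctnna3*, thus had all mutant values below the controls. *Ctnnb1*, *Ctnnd1*, *Afdn*, *Pkp4*, *Vcl* and the other 2 did not pass, with estimates from −0.27 to 0.26. The desmosomal filament gene *Des*, with *Tmem43* and *Perp*, had estimates between −0.07 and 0.05.

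Of 10 scaffold and actin-linking genes, *Nrap*, which anchors terminal actin filaments at the disc, was lower (−0.33, unadjusted *P* = 0.033), and *Enah*, an actin-elongating protein, was higher. *Enah* had 1054, 1034 and 1130 normalized counts in CtrlCre and 1464, 1450 and 1228 in Cpt1bcKO samples (log2 fold change 0.36, unadjusted *P* = 0.023, adjusted *P* = 0.262). *Tjp1*, a zonula occludens scaffold that binds the main ventricular connexin, had 530, 689 and 655 in CtrlCre and 451, 481 and 594 in Cpt1bcKO samples, which overlapped (−0.30, unadjusted *P* = 0.101).

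Of 9 membrane proteins and channel anchors, 3 were lower at an unadjusted *P* below 0.05. *Tmem65*, a disc membrane protein that binds the same connexin, had 1272, 1390 and 1230 normalized counts in CtrlCre and 965, 925 and 898 in Cpt1bcKO samples (−0.48, unadjusted *P* = 0.00373, adjusted *P* = 0.116). *Ank2*, the gene of ankyrin-B, differed by −0.31 (unadjusted *P* = 0.046), and *Fgf13*, a modulator of cardiac ion channels, by −0.55 (unadjusted *P* = 0.0293). The connexin *Gja3* was low throughout, with 58, 43 and 45 in CtrlCre and 32, 32 and 5 in Cpt1bcKO samples (unadjusted *P* = 0.0352).

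Estimates of cell type markers differed between the groups as well. All 8 CM markers had lower estimates in Cpt1bcKO, with a median log2 fold change of −0.44 and summed levels of 244345 to 316047 in CtrlCre and 184010 to 218405 in Cpt1bcKO samples. None of these 8 passed the adjusted threshold in limma (1.57% of all genes did), and 2 had an unadjusted *P* below 0.05. All 7 tested fibroblast markers were higher at an unadjusted *P* below 0.05, and summed levels of all 8 were 498 to 785 in CtrlCre and 1108 to 1338 in Cpt1bcKO samples. *Col1a1* (45, 69 and 64 against 162, 141 and 141) and *Lum* (30, 26 and 23 against 81, 66 and 75) rose at an adjusted *P* of 0.0143 each. The part of either shift in the values of the junction genes was not tested.

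*Gja5* and *Gjc1* are also expressed outside working ventricular CMs, and the lists for those cells went in several directions. Of 3 tested conduction system markers all had lower estimates. In limma 2 of them had an unadjusted *P* below 0.05 and 1 an adjusted *P* below 0.05. Across all genes, 7.22% and 0.906% were lower at these thresholds. *Hcn4* (22, 24 and 21 against 6, 1 and 18) had an unadjusted *P* of 0.0246. Summed levels of the 4 analysed were 80 to 154 in CtrlCre and 56 to 65 in Cpt1bcKO samples. Of 2 tested atrial markers, *Myl4* overlapped between the groups (unadjusted *P* = 0.562). *Nppa* is also a stress gene of ventricular CMs and rose 3.66-fold (adjusted *P* = 0.00917), while the defining atrial light chain *Myl7* was near the limit of detection (2, 5 and 19 against 7, 9 and 10). None of the 4 tested arterial endothelial markers passed even the unadjusted threshold, and their list summed to 139 to 255 in CtrlCre and 196 to 230 in Cpt1bcKO samples. Whether these cells contribute to the values of *Gja5* and *Gjc1* was not tested.

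Endothelial markers summed to 1195, 2260 and 2485 in CtrlCre samples 1 to 3 and to 2182 to 2502 in Cpt1bcKO samples, 7 of 7 with higher estimates and 1 at an unadjusted *P* below 0.05. Mural markers summed to 1108 to 2300 and 1174 to 1739, with 1 of 6 tested lower at that threshold. CtrlCre sample 1 was the lowest on both lists. Among the controls it also had the highest CM marker sum (316047 against 244345 and 264390) and the lowest fibroblast marker sum (498 against 785 and 772). This sample, the female control, had the highest values of *Gja1*, *Gjc1*, *Cdh2*, *Pkp2* and *Dsg2* among the controls. Without it the log2 fold changes of *Gja1*, *Gjc1*, *Cdh2* and *Dsg2* were −0.51, −0.92, −0.71 and −0.69, each with an unadjusted *P* below 0.05, and that of *Pkp2* was −0.06 (unadjusted *P* = 0.71). Immune markers (87 to 159 and 129 to 144) and epicardial markers (21 to 50 and 16 to 27) were low, and none of their 6 and 1 tested genes passed either threshold.

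How the samples are scaled decides the absolute direction of part of the set. Scaling to equal levels of the 8 CM markers, an alternative added after the data had been seen, moved the median of all genes tested to 0.49 and that of the 10 genes to 0.08. The estimates of 9 of the 10 lay below the median of all genes on either scale, since such a scaling shifts all genes by nearly the same amount. On this scale *Gja1* stood at −0.04, close to the CM markers, and *Gjc1*, *Dsg2*, *Cdh2* and *Ctnna3* stood below 0 at −0.64, −0.31, −0.28 and −0.28. Only *Gjc1* kept an unadjusted *P* below 0.05 there (0.0366, adjusted *P* = 0.121), beside 128 of 11266 genes with lower values at that threshold. On the deposited scale all 8 markers had lower estimates themselves, 2 of them at an unadjusted *P* below 0.05 in limma. The study reports reduced expression of genes of CM maturation and contraction. Whether these markers reflect CM content or that response was not tested.

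**Figure D5:**
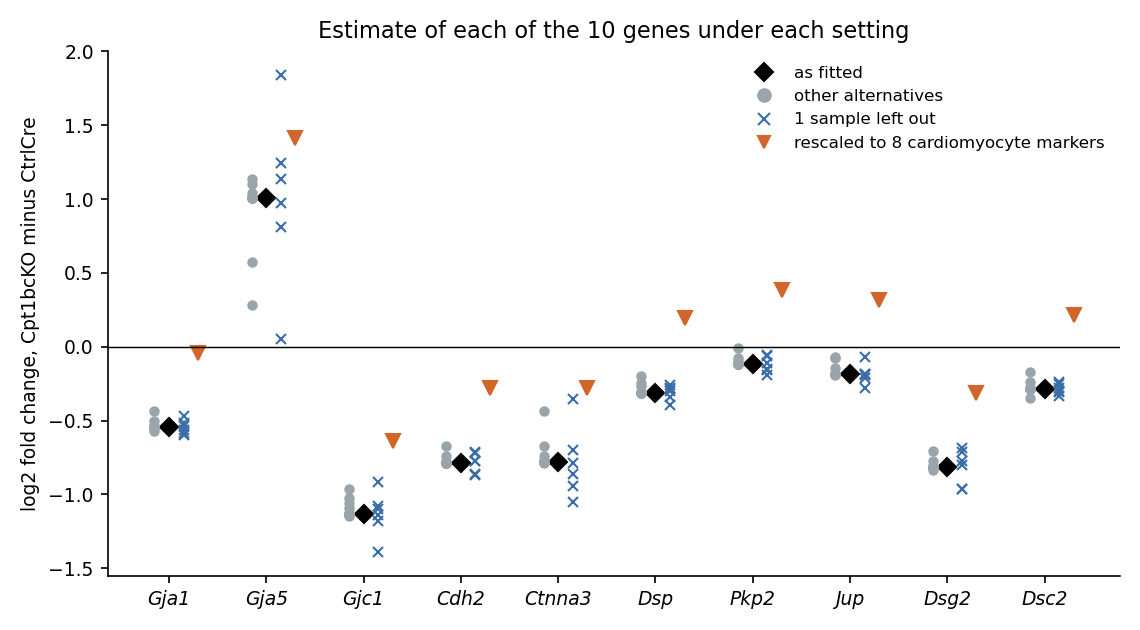
Log2 fold change of each of the 10 genes (vertical axis) as fitted (black), with 1 sample left out (blue crosses), scaled to 8 CM markers (orange triangles) and under the other alternatives (grey). *Gja1*, *Gjc1*, *Cdh2*, *Ctnna3* and *Dsg2* are below 0 under every setting run, with *Gja1* at −0.04 relative to CM markers, whereas *Dsp*, *Pkp2*, *Jup* and *Dsc2* turn positive there and *Gja5* spreads from 0.05 to 1.84.

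Within both sexes 9 of the 10 genes had lower values in Cpt1bcKO, all but *Gja5*. There was 1 female per group, so the female pair has no test. Between the 2 male samples of each group, *Cdh2* (adjusted *P* = 0.0181) and *Dsg2* (0.0319) passed the adjusted threshold in limma. In that fit, which was not planned beforehand, 239 of 11364 genes passed, 116 with higher and 123 with lower values. When sex was a covariate, 5.05% of all genes passed the adjusted threshold, among them 5 of the 10 genes: *Cdh2*, *Dsg2* (adjusted *P* = 0.00376), *Gja1* (0.013), *Gjc1* (0.0235) and *Ctnna3* (0.0475), the same 5 genes that had an unadjusted *P* below 0.05 without it. *Dsp*, *Pkp2*, *Jup*, *Dsc2* and *Gja5* did not pass the adjusted threshold in any fit run.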

How the data were processed

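RNA-seq libraries of total RNA were made with a stranded kit from CMs of 3 CtrlCre and 3 Cpt1bcKO mice. Per the methods and the submitters' processing notes, reads were checked with FastQC (0.11.8), trimmed with Trimmomatic (0.36), aligned with STAR (2.5.4b) to mm10 (GRCm38.p5) and counted per gene with featureCounts (1.6.0). The deposited score of each gene and sample is a DESeq2 (1.14.1) normalized count that the authors rounded to whole numbers. The annotation release and the use of strand in counting are not given in the sources used here. Columns with the authors' means, fold changes and P values were not used.

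Values were transformed to log2(value + 1) and compared with limma (3.58.1, R 4.3.3; lmFit, eBayes with a trend) in 11364 genes that reached a value of 10 in 3 or more of 6 samples. P values are two-sided and were adjusted after Benjamini–Hochberg over all of them. Differences are Cpt1bcKO minus CtrlCre, and fold changes on this scale understate those of genes with low values. The steps were tested on simulated data. The 3 samples of a group are taken as separate mice, as the study's text has it; the labels do not state this.

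The 10 genes and all lists were chosen with earlier results of these data known. Named genes are the 10, *Cpt1b*, other disc genes with an unadjusted P below 0.05, and markers with an adjusted one, some of which are not reported here. *Ctnnb1*, *Tjp1*, *Ctnnd1*, *Afdn*, *Pkp4*, *Vcl*, *Des*, *Tmem43*, *Perp*, *Gpr89*, *Hcn4*, *Myl4* and *Myl7* were added after their values were seen. Levels per kb use the union of GENCODE vM21 exons, which gave a length for 98.8% of tested genes. Tables and figures were made with Python 3.11.15, numpy 2.4.6, pandas 2.3.3 and matplotlib 3.10.9. Alternatives were 4 other scalings, pseudocounts of 0.5 and 5, other filters, a replicate block, sex as covariate, 1 prior variance for all genes, and leaving out samples.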

Additional observations from a re-analysis of the deposited data

How the results depend on the processing

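Whether the replicate numbers pair the samples cannot be told from these values. The deviations of same-numbered samples correlated at 0.376, 0.255 and 0.0684, with a mean of 0.233, against a mean of −0.113 for other pairs. These correlations are across genes, which are not independent, and 4 of 6 samples correlated best with their own number. Sample 1 of each group was the female, so number and sex are partly aligned. With the replicate block, 603 of all genes passed the adjusted threshold (249 higher, 354 lower), 1289 were lower at the unadjusted one, and 5 of the 10 genes passed, the same 5 that had an unadjusted P below 0.05 without the block. At the unadjusted threshold 7 of the 10 genes were lower, with *Dsp* and *Dsc2* added, also with sex as covariate. Of the other disc genes 2 (*Ctnna1* and *Tmem65*) passed and 11 had an unadjusted P below 0.05. With sex as covariate the counts were 574 (243 higher, 331 lower), 1280, 5, 2 and 11. With 1 prior variance 41 of all genes passed the adjusted threshold (23 higher, 18 lower), with 0 of the 10 genes among them. At the unadjusted threshold 4 of the 10 genes were lower and 2 other disc genes passed, beside 785 higher and 689 lower of all 11364 genes.

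Scaling to 8 CM markers gave 913 genes (870 higher, 43 lower), 3857 higher and 128 lower at the unadjusted threshold, 0 of the 10 genes called, 1 lower at the unadjusted threshold, 5 estimates below 0, and 3 other disc genes called (*Enah*, *Flnc* and *Cxadr*, all higher) with 14 at the unadjusted threshold. The median of the 10 genes was 0.0769, and *Dsp* (0.194), *Pkp2* (0.384), *Jup* (0.315) and *Dsc2* (0.218) turned positive. The scaling sets the CM markers as equal by construction. Scaling to the total without mitochondrially encoded and rRNA genes left 1220 genes higher and 500 lower at the unadjusted threshold, 0 of the 10 called (*Cdh2* adjusted P = 0.0548) and a median of −0.32. The median was −0.38 after upper-quartile scaling and −0.55 where all 6 values had to reach 10, which leaves out *Gja5*. Without both female samples 239 genes were called (116 higher, 123 lower), and 947 were higher and 1062 lower at the unadjusted threshold. Of the 10 genes 2 (*Cdh2* and *Dsg2*, both lower) were called there, with 1 other disc gene (*Flnc*, higher). At the unadjusted threshold 6 of the 10 genes were lower, 4 other disc genes passed, *Flnc* included, and the median of the 10 genes was −0.39. At an unadjusted P below 0.05 the calls were 1578 genes, 5 of the 10 and 7 other disc genes.

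Leaving out each sample in turn gave 42 to 329 genes (19 to 150 higher, 23 to 179 lower), 459 to 1032 higher and 548 to 1230 lower at the unadjusted threshold, 0 to 3 of the 10 genes called, 0 to 1 other disc gene called, 3 to 8 at the unadjusted threshold, and a median from −0.45 to −0.34. The highest counts of all genes were without Cpt1bcKO sample 1 and the lowest without Cpt1bcKO sample 2. Where a count moved and the cause is not set by the construction of the alternative, the cause was not tested. The values of *Gja5* and *Gjc1* rest on few reads, and whether depth limits their estimates was not tested.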
